A study of Arabidopsis thaliana with 6 samples.

Results

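The genes described here carry ammonium into amino acids: the plastid glutamine synthetase gene GLN2, the glutamate synthase genes GLU1, GLU2 and GLT1, the plastid dicarboxylate translocator genes DiT1 and DiT2.1, and the asparagine synthetase genes ASN1, ASN2 and ASN3. These 9 genes were taken by locus code from the 27444 protein-coding genes of the nuclear chromosomes of Arabidopsis thaliana, and all 9 codes were found under names that fit. For each gene, every NLP2 peak was taken whose summit lay inside the gene or within 5000 bp of either end. This gave 6 of the 593 peaks in the list made with nitrate and 0 of the 579 peaks in the list made without it.

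NLP2 is a NIN-like protein, a transcription factor of the nitrate response, and chromatin immunoprecipitation with sequencing located it on the genome. All plants were nlp2-2 mutants in the Col-0 background that carried NLP2-GFP under the NLP2 promoter, and anti-GFP antibodies pulled down the fusion. Seedlings, 14 days old by their label, had grown for 10 days on 3 mM potassium nitrate and then for 3 days without nitrogen. They then received fresh nitrogen-free medium (T0) or 3 mM nitrate for 30 min (T30), and each time has 2 immunoprecipitated libraries and 1 input library. The authors pooled both libraries of a time before the list was filtered, as far as the lists' names say. These names carry the tag IDR, which usually stands for a filter on agreement between replicates. Its settings are not given here. The lists hold no value per library, so no value below has a replicate error, and no test was made. Whole seedlings were used, so roots, leaves and their cell types cannot be told apart. The labels name no immunoprecipitation from untagged plants and do not say how many independent transgenic lines were used.

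Nitrate taken up by a plant is reduced to nitrite and then, in the plastid, to ammonium. Plastid glutamine synthetase joins ammonium to glutamate and makes glutamine, and glutamate synthase (GOGAT) passes the amide nitrogen of glutamine to 2-oxoglutarate and makes glutamate. The carbon skeleton reaches the plastid through DiT1, which exchanges 2-oxoglutarate for malate, and DiT2 proteins carry glutamate out. Asparagine synthetases move the amide nitrogen of glutamine on to aspartate, and the asparagine formed stores and transports nitrogen.

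With nitrate, 5 of the 9 genes had an NLP2 summit inside or within 5000 bp: GLN2, GLU1, DiT1, ASN1 and ASN2. Among all protein-coding genes 5.41% had such a T30 summit. Within 1000 bp the count was 4, without ASN1, against 1.91% of all protein-coding genes. Without nitrate, 0 of the 9 had a summit within 5000 bp, against 3.76% of all protein-coding genes, and 0 of the 9 within 1000 bp, against 1.35%. GLT1, GLU2, DiT2.1 and ASN3 had none at either time. The genes were chosen with earlier results of these lists known, so the counts describe them and support nothing further.

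**Figure D1:**
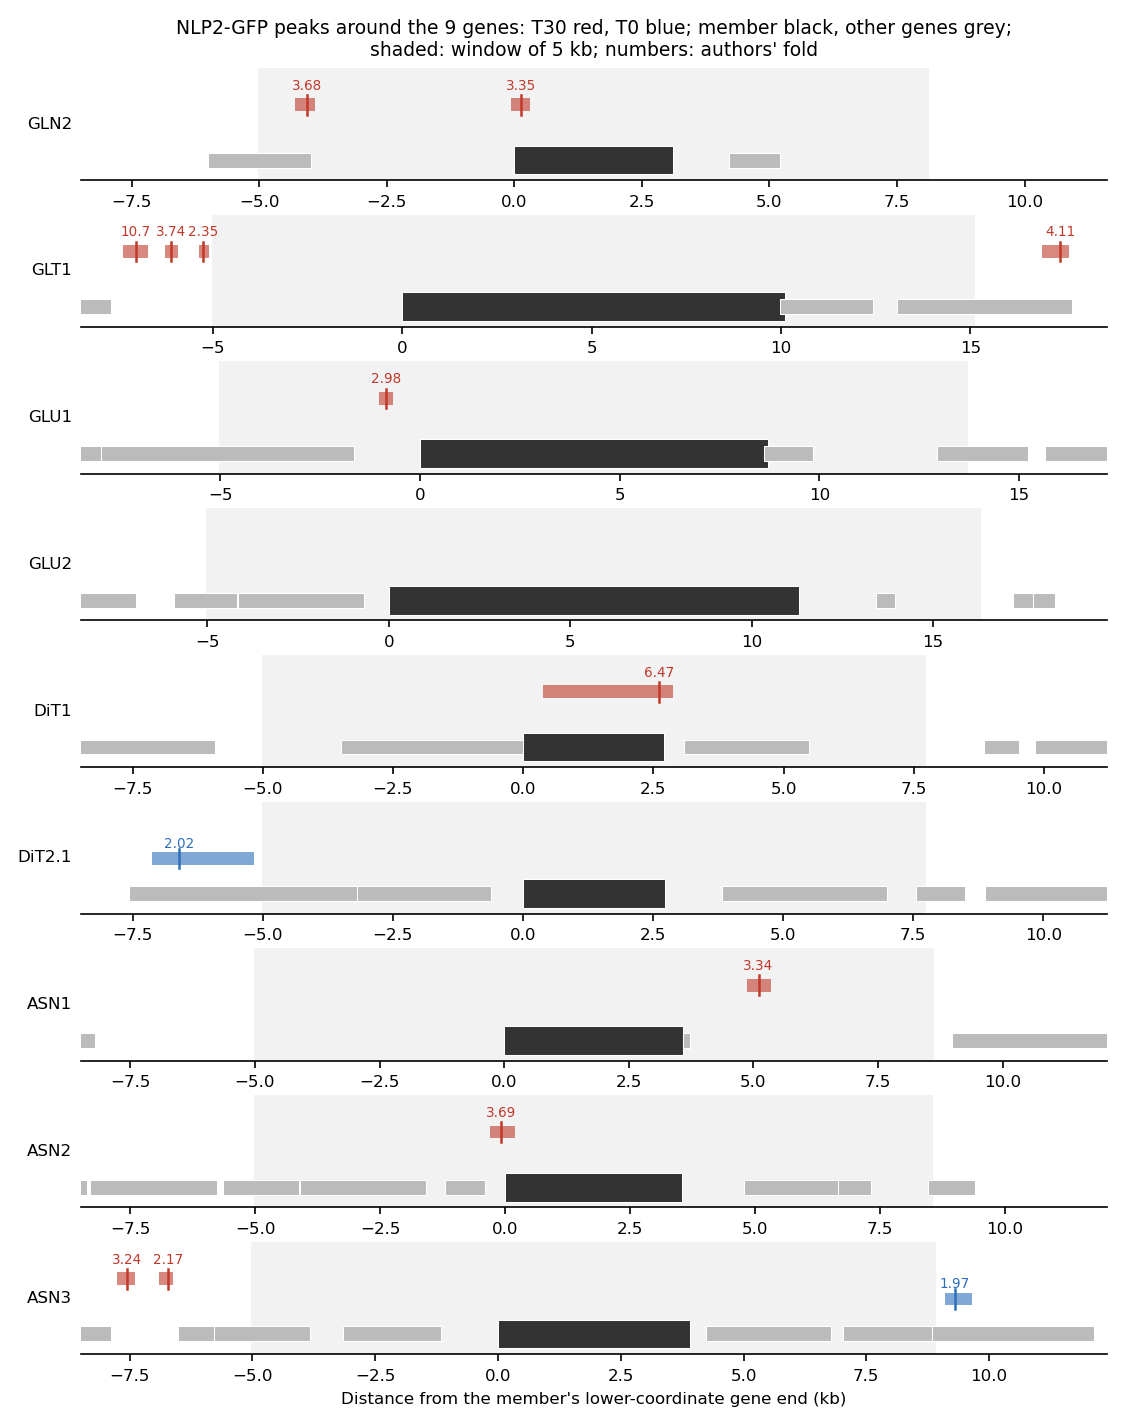
Peaks of NLP2-GFP around the 9 genes, as distance in kb from the gene end with the lower coordinate; red bars are T30 peaks, blue bars T0 peaks, vertical ticks are summits, the numbers are the authors' fold, and the shaded span reaches 5 kb beyond the gene. Red bars stand in the shaded span of GLN2, GLU1, DiT1, ASN1 and ASN2, no blue bar has its summit in any, and the red bars of GLT1 and ASN3 lie just outside.

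GLN2 (AT5G35630) encodes the glutamine synthetase of plastids, which takes up ammonium from nitrite reduction and from photorespiration. It had 2 T30 peaks in its window. The summit at 13830564 on chromosome 5, in a peak from 13830358 to 13830736 (TAIR10, as all positions here), lay inside the gene, 135 bp from its lower-coordinate end. The authors' fold of this peak, a ratio of enrichment, was 3.35, and its −log10 q, where q is the peak p-value corrected for multiple testing, was 76.9. It ranked 190 of 593 by fold within the T30 list. The other peak, from 13826127 to 13826522, had a fold of 3.68 and ranked 154. Its summit lay 4068 bp from GLN2 and inside the neighbouring gene LSP1 (AT5G35620), which encodes a translation initiation factor. Only the first of these peaks thus touches GLN2 itself. The nearest T0 summit was 19.5 kb away.

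Glutamate synthase has ferredoxin-dependent forms, encoded by GLU1 and GLU2, and an NADH-dependent form, encoded by GLT1. GLU1 (AT5G04140), whose enzyme predominates in leaves, had 1 T30 peak, on chromosome 5 from 1128759 to 1129104 with the summit at 1128941. Its fold was 2.98, the lowest of the 6 peaks, its −log10 q was 57.4, and it ranked 254. The summit lay between GLU1, at 844 bp, and the DNA gyrase subunit gene GYRB2 (AT5G04130), at 797 bp. Position therefore does not assign this peak to GLU1 rather than to GYRB2. No T0 summit lay within 328 kb of GLU1.

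GLU2 (AT2G41220), the other ferredoxin-dependent gene, had no T30 summit nearer than 18.2 kb. That summit belonged to a peak inside M17 (AT2G41260), and a T0 peak overlapped it. GLT1 (AT5G53460) stood just beyond the window, with its nearest T30 summit at 5265 bp. The gene is 10110 bp long, and a longer gene has a wider span in which a summit counts. Yet a T30 summit within 5000 bp was found for 4.76% of protein-coding genes of 5000 bp or more. The share was 5.92% from 2000 to below 5000 bp and 4.99% below 2000 bp. GLT1 had 4 T30 summits within 10000 bp, all outside the gene. Among all 27444 protein-coding genes, with no account taken of length, 11 reached or passed that number (0.0401%). GLT1 was listed in the selection as a neighbour of ORG1 (AT5G53450), so this share supports nothing about GLT1 itself. On the lower-coordinate side of GLT1, 3 of the 4 summits lay between GLT1 and ORG1. They were 7035, 6113 and 5265 bp from GLT1, with folds of 10.7, 3.74 and 2.35. ORG1 was the nearest protein-coding gene to each, at 672, 1594 and 2442 bp. The first of these, from 21692806 to 21693481 on chromosome 5, ranked 8 in the T30 list, above every peak counted for the 9 genes. The last of the 4 summits lay inside AT5G53480, 7269 bp from GLT1, with a fold of 4.11. No T0 summit lay within 112 kb of GLT1.

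The dicarboxylate translocator genes differed in the position of their nearest peaks. DiT1 (AT5G12860) had the highest fold of the 6 peaks, 6.47, with a −log10 q of 332, and ranked 39 of 593. Its summit at 4062184 on chromosome 5 lay inside the gene, 105 bp from the higher-coordinate end and 482 bp from MYB46 (AT5G12870), a regulator of secondary wall formation. The peak ran from 4059966 to 4062448 and covered 85.7% of the gene. At 2483 bp it was the widest peak of the T30 list, whose median width was 435 bp. The other 5 peaks were 346 to 500 bp wide. Only 3 T30 peaks (0.506%) were wider than 2000 bp, and the other two had folds of 2.22 and 2.30 and overlapped T0 peaks, whereas the DiT1 peak did not. The summit of the DiT1 peak stood 264 bp from 1 edge of the peak and 2218 bp from the other, so most of its width lay over the gene body.

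**Figure D2:**
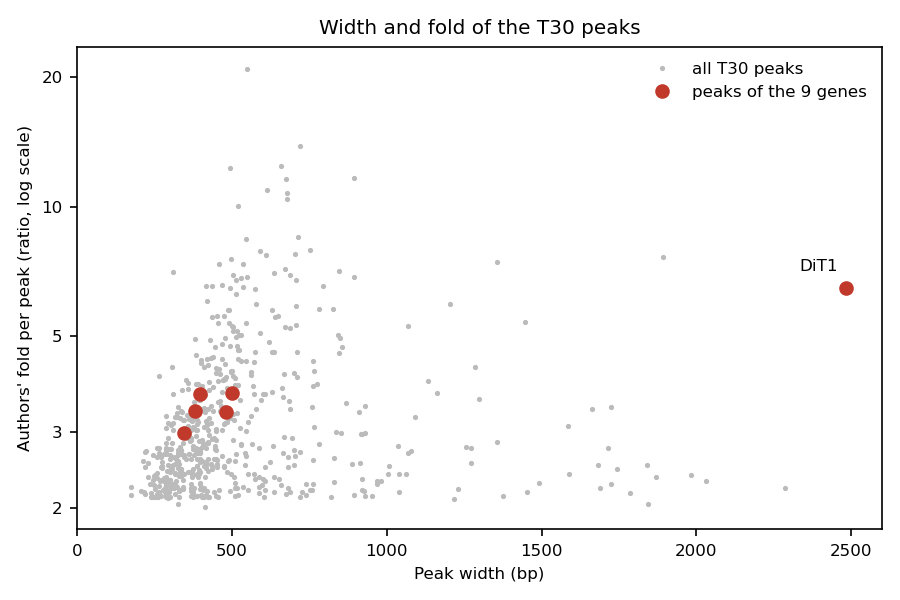
Width in bp against the authors' fold (log scale) for the 593 T30 peaks in grey and the 6 peaks counted for the 9 genes in red. The DiT1 peak stands alone at 2483 bp and a fold of 6.47, and the other 5 lie between 346 and 500 bp.

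DiT2.1 (AT5G64290), the glutamate and malate exchanger, had no T30 summit within 252 kb. The share of all protein-coding genes with a nearer T30 summit was 83.9%. Its nearest T0 summit was at 6600 bp, inside AT5G64270, in a peak 1963 bp wide with a fold of 2.02 that ranked 394 of 579 in the T0 list. The related gene DiT2.2 (AT5G64280) lies between AT5G64270 and DiT2.1, and this T0 summit was 3421 bp from it. DiT2.2 had no T30 summit within 5000 bp.

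Among the asparagine synthetase genes, ASN2 (AT5G65010) had the nearest summit. It lay at 25968957 on chromosome 5, outside the gene and 78 bp from its lower-coordinate end, in a peak from 25968728 to 25969227. The fold was 3.69, the −log10 q 97.2 and the rank 151. The neighbour AT5G65005 was 319 bp from this summit. ASN1 (AT3G47340), a gene known for its rise in darkness and carbon shortage, had a summit farther off, at 1510 bp from its higher-coordinate end. This peak (chromosome 3, 17442717 to 17443195) ranked 195, at a fold of 3.34. The small gene AT3G47341, which overlaps the end of ASN1, was nearer to that summit, at 1374 bp, and HSD2 (AT3G47350) was 3877 bp away. The nearest T0 summits were 10.8 kb from ASN2 and 16.6 kb from ASN1.

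ASN3 (AT5G10240) had summits just beyond the window at both times. At T30 they lay at 6722 and 7556 bp, with folds of 2.17 and 3.24, and were nearest to AT5G10210 and AT5G10200. At T0 the nearest was at 5407 bp, inside the kinase gene CDKC;1 (AT5G10270), with a fold of 1.97. On the edge of the window, the farthest summit counted was the second GLN2 summit at 4068 bp, and the nearest one left out was the GLT1 summit at 5265 bp.

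Taken as a set of 6, the peaks had folds of 2.98 to 6.47 with a median of 3.51, and 6 of 6 were above the T30 list median of 2.75. The DiT1 peak apart, the highest fold was 3.69. Of the 6 summits, 2 lay inside the gene they were counted for (GLN2 and DiT1), and for 3 of the 6 peaks that gene was the nearest protein-coding gene (GLN2, DiT1 and ASN2). None of the 6 overlapped a T0 peak, against 19.2% of all T30 peaks. None overlapped an input peak of either time, against 5.4% of all T30 peaks, and no input peak had its centre within 36.6 kb of any of the 9 genes. The lists were cut at different levels, with a lowest −log10 q of 16.1 at T0 and 20.4 at T30. The 6 peaks were at 57.4 to 332, but every peak of the T30 list is at or above both levels by construction. A T0 enrichment too weak to be listed cannot be read from these lists, and folds of T0 and T30 peaks are not compared.

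**Figure D3:**
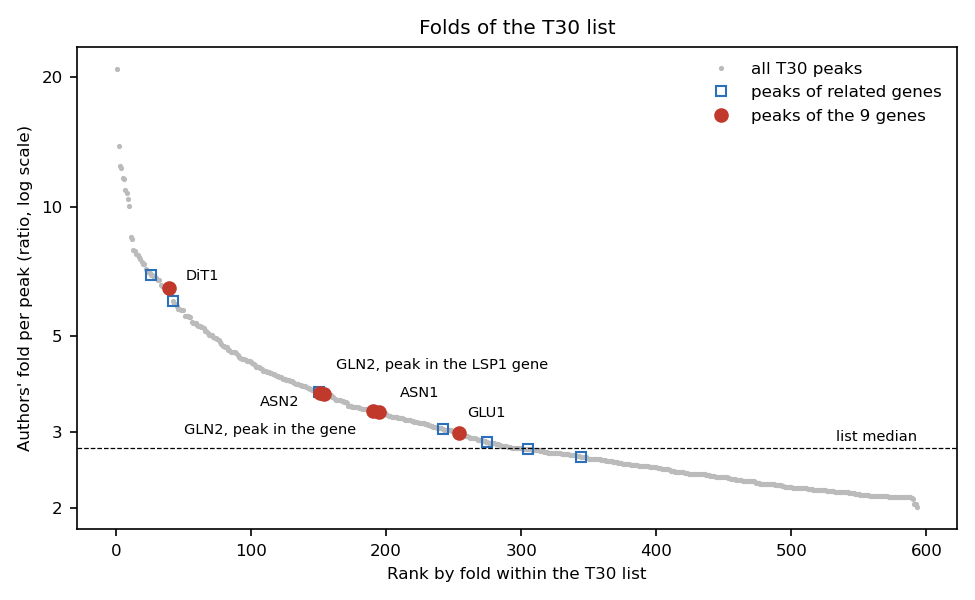
The authors' fold (log scale) of the 593 T30 peaks against their rank within the list, with the 6 peaks counted for the 9 genes in red, the peaks counted for related genes as open blue squares, and the list median dashed. DiT1 sits at rank 39, the other red points sit between ranks 151 and 254, and all 6 are above the median.

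A list of 34 related genes, which covers other steps around glutamine, glutamate and asparagine, was set beside the 9 genes. With nitrate, 7 of the 34 had a summit inside or within 5000 bp and 2 within 1000 bp, against 5.41% and 1.91% of all protein-coding genes. The share within 5000 bp was 20.6%, against 55.6% of the 9 genes, a difference that was not tested. Those within 1000 bp were GGT1 (AT1G23310), a peroxisomal glutamate:glyoxylate aminotransferase of photorespiration, and the plastid NAD-dependent malate dehydrogenase gene (AT3G47520). GGT1 had a fold of 6.93 with the summit 154 bp from the gene, at rank 26. The malate dehydrogenase gene had a fold of 6.02 with the summit inside it, at rank 42. Both ranks are close to that of DiT1.

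The other 5 had summits at 1302 to 4528 bp, and for 4 of these another gene was nearer. ASPGB1 (AT3G16150), an asparaginase, had a fold of 2.62, with the photosystem gene PSAH-1 nearer to the summit. The PEP carboxylase gene PPC3 (AT3G14940) had a fold of 3.04, with HEME1 of the haem pathway nearer. The gene of the chloroplast NADP-dependent malate dehydrogenase (AT5G58330) had a fold of 3.70, from a summit that lay inside NET4A. The cytosolic glutamine synthetase gene GLN1;2 (AT1G66200) had a fold of 2.73 and its summit at 4528 bp, nearer to AT1G66210. PPC2 (AT2G42600), at 2493 bp with a fold of 2.84, was itself the nearest gene.

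By role, genes with a T30 summit within 5000 bp were counted, beside 5.41% of all protein-coding genes. They were 1 of 5 cytosolic glutamine synthetase genes, 2 of 4 PEP carboxylase genes and 2 of 2 plastid malate dehydrogenase genes. For asparaginase the count was 1 of 2, and for alanine or glyoxylate aminotransferases 1 of 5. It was 0 of 3 for glutamate dehydrogenase, 0 of 5 for aspartate aminotransferase and 0 of 6 for ammonium transporters, and the PII gene GLB1 had none. Within 1000 bp, only 1 plastid malate dehydrogenase gene and 1 alanine or glyoxylate aminotransferase gene were left, beside 1.91% of all protein-coding genes. At T0, 2 of the 34 (5.88%) had a summit within 5000 bp, near the 3.76% of all protein-coding genes: DiT2.2 and the ammonium transporter gene AMT1;4 (AT4G28700). The AMT1;4 summit was within the gene and its fold, 1.97, ranked 492 of 579.

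**Figure D4:**
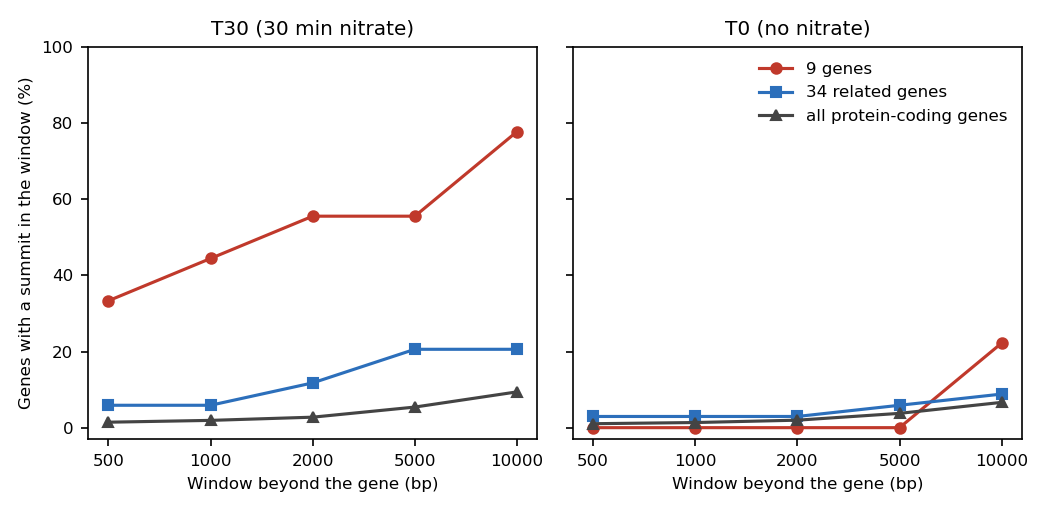
Percent of genes with a summit inside or within 500 to 10000 bp, at T30 (left) and T0 (right), for the 9 genes (red), the 34 related genes (blue) and all 27444 protein-coding genes (dark grey). At T30 the 9 genes go from 33.3% to 77.8% while all genes go from 1.44% to 9.40%, and at T0 the 9 genes stay at 0 up to 5000 bp and reach 22.2% at 10000 bp, against 6.65% of all genes.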

How the data were processed

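The deposited files are 4 peak lists: 1 list per time from immunoprecipitated libraries and 1 per time from input. The genome build was TAIR10, and Bowtie2 (2.3.4.1), MACS2 (2.1.1) and SAMtools (1.7) are named as tools, without their roles, per the submitters' processing notes. The authors' fold (a ratio), −log10 q and score of each peak are the deposited values; the score is 10 times −log10 q rounded down in 100% of peaks of the immunoprecipitated lists. The fold's background and the tags noCM and noINPUT in the names are not explained in the sources used here. Folds describe and rank peaks within 1 list. Read depth is unknown.

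Positions are 1-based. Gene names and distances came from the RefSeq gene table of TAIR10.1, which assumes equal nuclear coordinates in TAIR10; it gives no strand or exons, so which gene end is the start is unknown. A summit counted for every gene in whose window it lay, and peaks overlapped when they shared 1 bp. Window counts (Python 3.11.15, pandas 2.3.3) were tested on simulated summits. Named genes are the 9 members, genes nearer to their summits, and related genes with a summit within 5000 bp. Genes named as nearest to a summit outside the windows, and groups with none, were added after the values were seen. MYB46, AT5G65005 and HSD2 were named outside this rule, as farther neighbours within 5000 bp of a counted summit. Other such neighbours were not named. Members and lists were chosen with earlier results of these data known. A promoter motif search and protein identities were planned and not run, since they need sequences not used here. Alternatives changed the window, the summit rule, the peak cut-off, input overlap and the gene table's place.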

Additional observations from a re-analysis of the deposited data

How the results depend on the processing

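Of 35 alternative settings over 5 counts, 29 left the count within 1.5 times its value. Many of the 29 could not move a count, so this total does not measure stability. The shared cut-off, a −log10 q of 20.4, is the lowest value of the T30 list and removes no T30 peak. The median-fold and input-overlap settings remove none of the 6 peaks of the 9 genes, and several settings can only lower counts that were already 0. The T30 count of 5 genes within 5000 bp became 3 with a 500 bp window (1.44% of all protein-coding genes) and 3 when each summit went to its nearest protein-coding gene only (1.71%), with GLN2, DiT1 and ASN2 left in both cases. With a 10000 bp window it was 7 (9.40% of all genes), with GLT1 and ASN3 added. The T0 count of 0 became 2 (DiT2.1 and ASN3) with a 10000 bp window, where 6.65% of all genes had a T0 summit. It was 0 under the other 10 settings, but most of these can only keep or lower a count. Among the 10, only counting any base of a peak and moving the gene table by 250 bp could have raised it. The T30 count within 1000 bp was 3 or 4 under its alternatives, and GLU1 was lost when the gene table was moved 250 bp upward or each summit went to its nearest gene. No T30 peak of the 9 genes had a T0 summit within 1000 bp. The count of 7 related genes became 2 with a 1000 bp window (1.91% of all genes), 4 with 2000 bp (2.75%) and 3 with the nearest-gene rule (1.71%). The looser motif was not run. No paired analysis was possible because each time has a single pooled list, and for the same reason no replicate could be left out.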

Other observations

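The T30 peak nearest to DiT2.1, 252 kb away, was the ASN2 peak. The T30 peak next nearest to ASN1, at 71.8 kb, was that inside the plastid NAD-dependent malate dehydrogenase gene, and the third nearest to GLU1, at 180 kb, lay 164 bp from the sulfite reductase gene SIR with a fold of 3.67. The third nearest to DiT1, at 96.5 kb, lay inside the glucose-6-phosphate dehydrogenase gene G6PD2 with a fold of 6.88. Nearer peaks lay in other genes. The second nearest to GLU1, at 164 kb, lay inside MTM2 with a fold of 2.25. The second nearest to DiT1, at 12.2 kb, lay inside AT5G12470 with a fold of 3.00. The median distance from a gene to its nearest T30 summit was 1.51 kb for the 9 genes and 82.1 kb for all protein-coding genes, and to its nearest T0 summit 18.2 kb and 115 kb. These genes were named after their values were seen.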
